A study of Mus musculus with 6 samples.

Results

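The regions described here are narrow ATRX binding sites of mouse embryonic fibroblasts (MEFs, connective-tissue cells grown from embryos) that have another site close by on the same chromosome. They were selected on the positions and widths in the deposited MEF peak list. A peak was a member if it was less than 2000 bp wide, lay on any chromosome other than 3, 6, 10, 11 or 13, and had another MEF peak at an edge-to-edge gap of at most 100 kb. The list holds 2054 peaks, of which 1385 lie on the 16 chromosomes considered and 1162 of those are narrow. The rule found 459 members, or 39.5% of these narrow peaks. Consecutive members no more than 100 kb apart were joined into runs. This gave 169 runs of 2 or more members, which hold 407 members. The other 52 members had no narrow neighbour within reach, so by the rule the nearest peak of each was a wide one.

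ATRX is a chromatin remodelling ATPase of the SWI/SNF family that works with the histone chaperone DAXX to place the histone variant H3.3 into chromatin. It is known from pericentromeric heterochromatin, telomeres and G-rich tandem repeats, and its mutation in people causes a syndrome with intellectual disability and alpha-thalassaemia, which is why erythroid cells are of interest beside fibroblasts. The title of the series places ATRX at telomeric repeats that are transcribed, where it limits R-loops, structures in which RNA stays paired with a DNA strand.

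The MEF list comes from 1 ChIP-seq library of C57BL/6 MEFs, made with the ATRX antibody H300. A second list, of 983 peaks, comes from 1 library of C57BL/6 foetal liver erythroid cells at embryonic day 14.5, selected for the erythroid surface marker Ter119 and immunoprecipitated with the same antibody. Both are unmodified by genotype or treatment as far as the labels say. The remaining 4 samples of the series (the C57BL/6 MEF input, ATRX and input of MEFs labelled W8, and ATRX of Suv39h1/2 knockout MEFs) were not analysed here. With 1 library per cell type there is no replicate check, and no test was run: exact 95% intervals below count peaks or runs as if they were independent, which neighbours in a run are not. The lists give mm9 positions and no heights or read counts, so the depth behind a peak is unknown. They name no genes, so neither the genes at these sites nor the identity of the cells was checked, and sequence under the peaks was not used here.

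Most runs were pairs. Of the 169 runs, 132 (78.1%) had 2 members, 24 had 3, 9 had 4, and 1 had 6. Another 2 had 7 members, and the largest had 15. The 37 runs of 3 or more held 143 members, against 264 in the pairs. A run reached from its first to its last peak over a median of 41.6 kb, with the middle 50% of runs between 16.0 and 72.5 kb and extremes of 1.12 and 316 kb. Pairs spanned a median of 31.9 kb, runs of 3 a median of 82.1 kb and runs of 4 or more a median of 145 kb. The 100 kb rule bounds each gap, so this growth with size follows from how runs were built. Summed, the runs spanned 8.63 Mb, or 0.447% of the 1929 Mb of these chromosomes, with the unsequenced first 3 Mb left out except on chromosome Y.

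**Figure D1:**
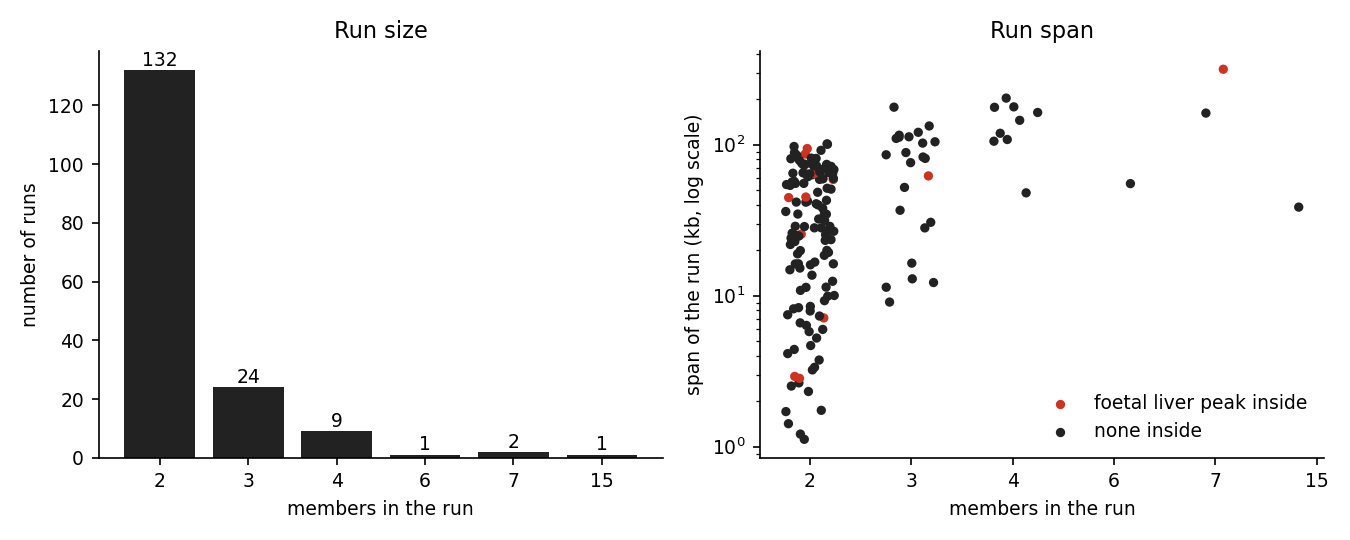
Left, the number of runs (bar height, also printed) by the number of members in the run. Right, the span of each of the 169 runs in kb on a log scale, with 1 point per run spread sideways at random within its size class and runs that hold a foetal liver peak in red. Pairs make up 132 of the runs, and the 15-member run is shorter, at 38.6 kb, than both runs of 7.

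Peaks covered little of a run. The members took up a median of 4.79% of their run's span, with the middle 50% of runs between 2.70 and 13.6%. The 238 gaps between successive members had a median of 28.1 kb, and their middle 50% ran from 6.16 to 58.6 kb. Gaps of at most 10 kb numbered 72 and gaps over 50 kb numbered 79. Runs therefore ranged from tight groups to loose strings of sites. In 40 runs every gap was at most 10 kb, and in 9 runs, all pairs, every gap was at most 1 kb.

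The closest neighbours nearly touched. The smallest gap, 109 bp, lay on chromosome 5 between peaks at 135997028 to 135997923 and 135998033 to 135999104, which belong to a run of 3. On chromosome 18 a peak of 325 bp (32604170 to 32604494) was followed after 112 bp by a peak of 1882 bp (32604607 to 32606488), and the peaks filled 95.2% of that pair's span. On chromosome 7 peaks of 512 and 581 bp (56687295 to 56687806 and 56687925 to 56688505) were 118 bp apart. Joined, such neighbours would form sites of 2077, 2319 and 1211 bp, so that the first 2 would have exceeded the 2000 bp limit. In all, 21 of the 238 gaps were at most 1 kb, and 16 of these lay outside the 15-member run. These 3 sites were picked for their small gaps, with the values in view.

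Members were 304 to 1998 bp wide with a median of 850 bp and a middle 50% from 577 to 1234 bp. Solitary narrow peaks on the same chromosomes, 703 in number, had a median of 894 bp (632 to 1223 bp). The 2 groups overlapped over nearly their whole range, and the difference was not tested. Within a pair the wider peak was a median of 1.51 times the narrower, and in 64 of 132 pairs the ratio was at most 1.5. The members without a narrow neighbour were 306 to 1753 bp wide, with a median of 855 bp. Their nearest wide peak lay a median of 38.7 kb away and had a median width of 2707 bp.

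The limits of the rule fell among peaks of closely similar values. The widest members measured 1998, 1988 and 1981 bp and lay on chromosome 2 (167626020 to 167628017), chromosome 8 (129781511 to 129783498) and chromosome 5 (121151198 to 121153178). The narrowest peaks just past the width limit, with a neighbour in reach, measured 2002, 2011 and 2038 bp, in that order on chromosome 17 (from 3081414 to 3083415), on chromosome 9 (from 117143344 to 117145354) and on chromosome 2 (from 26386900 to 26388937). For the gap, the outermost members were a pair 99.2 kb apart on chromosome 5 (135280556 to 135280929 and 135380141 to 135381894) and a peak on chromosome 9 (62622885 to 62624182) 98.4 kb from its neighbour. Just outside were a peak on chromosome 7 (53056696 to 53057589) at 100.3 kb and 2 peaks on chromosome 4 (154509879 to 154511636 and 154612045 to 154613863) at 100.4 kb.

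The run with the most members began at the first bases of assembled sequence on the centromere side of chromosome 9 (3000002 to 3038625). Mouse chromosomes are acrocentric, so this is the edge of the unsequenced block that holds the centromere and pericentromeric satellite DNA. Its 15 peaks were packed into 38.6 kb and covered 28.2% of it. With the MEF input not analysed here, whether these peaks are ATRX binding or a stretch that gathers reads in any library was not tested. Widths ran from 366 to 1328 bp with a median of 658 bp. Of these, 6 were under 500 bp and 4 over 1000 bp, mixed along the run. The first 5 peaks were 1066, 434, 1163, 387 and 1328 bp wide. The 14 gaps ran from 665 to 5909 bp with a median of 1603 bp, and peaks started a median of 2014 bp apart (1129 to 6483 bp). The next MEF peak of any width on that chromosome lay 4.00 Mb further in, and the nearest foetal liver peak 11.3 Mb away. This run supplied 14 of the 72 gaps of at most 10 kb. Without it there were 168 runs with at most 7 members each.

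Next came 2 runs of 7. That on chromosome 2 (167497266 to 167659359, 162 kb) was spaced loosely, with gaps of 1.97 to 40.7 kb. It held the widest member of all (1998 bp) and others of 1834, 1718 and 1517 bp, so that its median width of 1517 bp was well above the 850 bp of all members. It held no foetal liver peak and no wide MEF peak, although 2 foetal liver peaks of 531 and 494 bp ended 42.4 and 37.0 kb before its start. That on chromosome 19 (56871663 to 57187931) was the longest run, at 316 kb. Its members were 385 to 1491 bp wide and lay around 2 neighbouring wide peaks of 4921 and 2046 bp (57049319 to 57054239 and 57054353 to 57056398). A member of 1239 bp (57046038 to 57047276) preceded the first of these. Foetal liver peaks stood at both ends of this run: 1 of 392 bp lay 4.17 kb from its first member, and 1 coincided with its last.

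A run of 6 on the same chromosome (53595953 to 53651212, 55.3 kb) was front-loaded. Its first 5 peaks, of 1921, 410, 333, 927 and 1971 bp, followed each other within 6.9 kb at gaps of 139 to 554 bp. A wide peak of 2961 bp came 16.7 kb from the start of the run, and a last member of 1948 bp at 53.3 kb. No foetal liver peak lay inside or within 100 kb. A run of 4 on chromosome 2 (11378935 to 11426952, 48.0 kb) had the same shape, with peaks of 1688, 1476 and 1310 bp at the front and 1 of 501 bp that started 47.5 kb in.

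**Figure D2:**
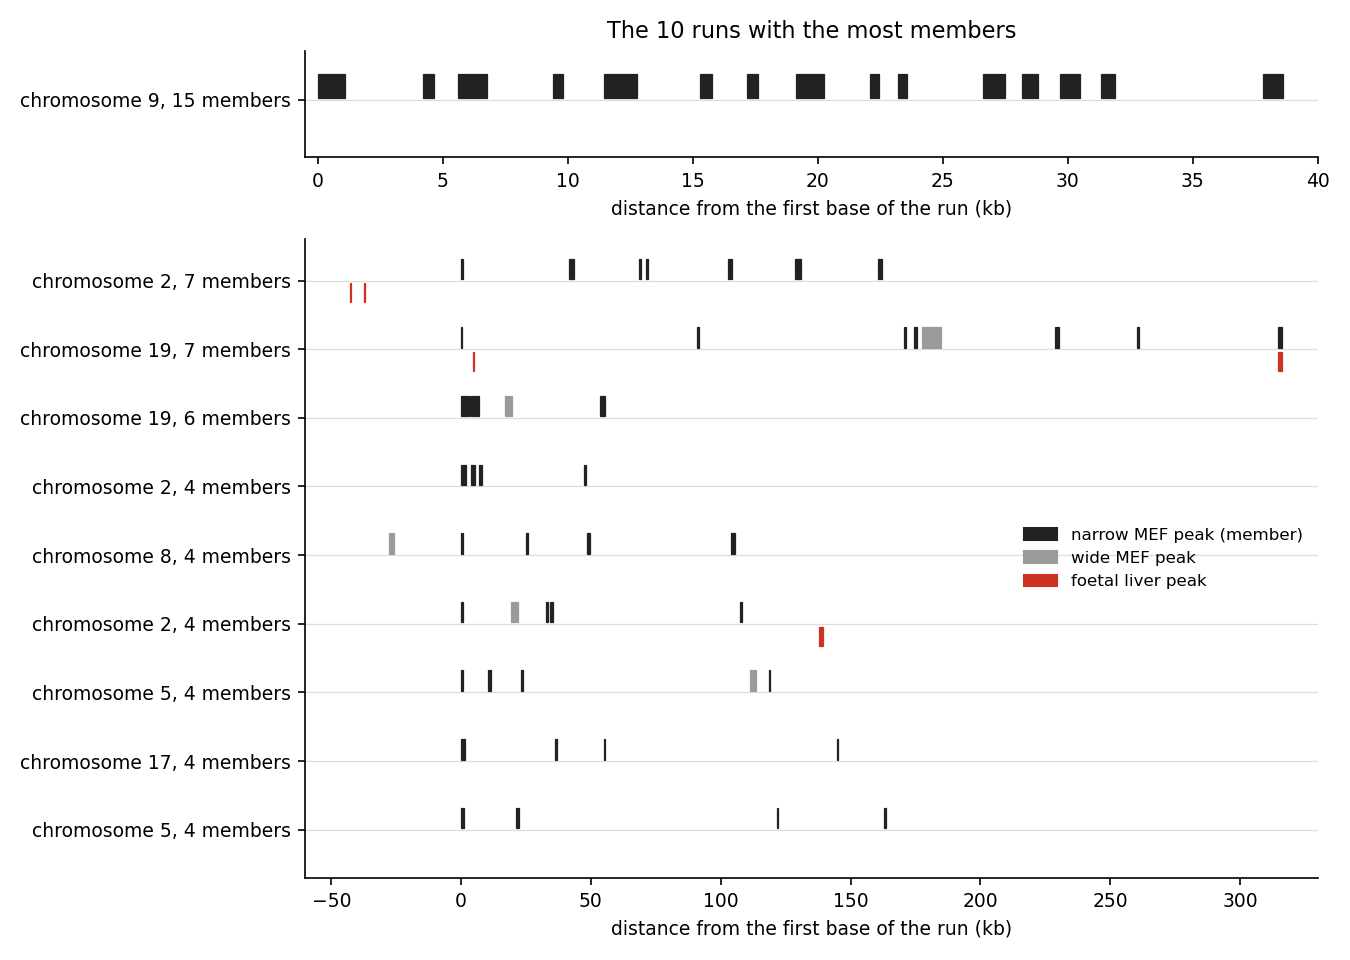
The 10 runs with the most members, drawn from the first base of each run in kb. Black boxes are members, grey boxes wide MEF peaks and red boxes below the line foetal liver peaks, each drawn with a thin outline that slightly widens the narrowest, and peaks up to 100 kb outside a run are included. The 15-member run has its own axis, and only the 316 kb run on chromosome 19 has foetal liver peaks inside.

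With 9 runs of 4 members, the 10 largest were completed by taking the shorter of these first, which leaves out runs of 4 on chromosomes 2, 8 and 1 that appear among the longest runs. A further 5 runs of 4 belong to the 10 largest. The run on chromosome 8 (123373263 to 123478784, 106 kb) was spaced at 22.6 to 54.5 kb, with a wide peak of 2148 bp that ended 25.7 kb before its start. Another run on chromosome 2 (170048555 to 170156868, 108 kb) held 2 members only 857 bp apart, 736 and 956 bp wide, and a wide peak of 2685 bp. Chromosome 5 had 2 such runs. One (113531904 to 113651004, 119 kb) ended beside a wide peak of 2402 bp, and the other (112566815 to 112730403, 164 kb) contained the largest gap inside any run, 99.3 kb. The run on chromosome 17 (6172578 to 6317714, 145 kb) had peaks of 1322, 805, 503 and 391 bp. None of the 5 held a foetal liver peak.

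Among runs of at least 3 members, the shortest was on chromosome 5 (114134631 to 114143703), where peaks of 1510, 696 and 691 bp lay within 9.07 kb. Next were runs of 3 on chromosome 18 (65717925 to 65729299, 11.4 kb), at 2 places on chromosome 9 (123832759 to 123844982, 12.2 kb, and 120490483 to 120503415, 12.9 kb) and on chromosome 1 (16493462 to 16509890, 16.4 kb). The second of the chromosome 9 runs was the most even in width, with peaks of 435, 431 and 461 bp. At the other extreme, after the chromosome 19 run, were a 204 kb run on chromosome 2 (167042056 to 167245735) and a 178 kb run on chromosome 8 (129605297 to 129783498), then runs of 177 kb on chromosome 15 (88585185 to 88762510) and on chromosome 1 (38494517 to 38671536). The chromosome 15 run had 3 sites of 1685, 1239 and 1416 bp at gaps of 83.8 and 89.2 kb. The chromosome 8 run ended in 2 wide peaks of 2785 and 3143 bp and a member of 1988 bp that followed the second after 194 bp.

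A wide MEF peak lay inside 10 of the 169 runs, and inside or within 100 kb of 28. The other 141 runs had no wide peak inside or within 100 kb. For scale, these chromosomes held 223 wide peaks in all. The runs themselves spanned 0.447% of the sequence of these chromosomes, which is a scale for the 10 only. The sequence within 100 kb of runs was not summed. By the rule a wide peak cannot itself be a member.

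Members fell on 15 of the 16 chromosomes, and chromosome X, with 8 narrow peaks, had none. Chromosome 5 held the most members (60 of its 136 narrow peaks, 44.1%), followed by chromosome 9 (57 of 112, 50.9%). Per length, chromosome 19 stood first, with 45 members at 0.771 per Mb of sequence, ahead of chromosome 17 at 0.488 and chromosome 9 at 0.471. Chromosomes 16, 7 and 4 were the sparsest autosomes, at 0.115, 0.127 and 0.131 members per Mb. MEF peaks of any kind were also densest on chromosomes 19, 17 and 9, at 1.77, 1.25 and 1.07 per Mb. At the sparse end the orders differed: chromosomes 14 and 1 had fewer peaks per Mb (0.426 and 0.505) than chromosomes 16, 7 and 4 (0.577, 0.635 and 0.590), yet slightly more members, at 0.139 per Mb each. The part of peak density in these differences was not tested.

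**Figure D3:**
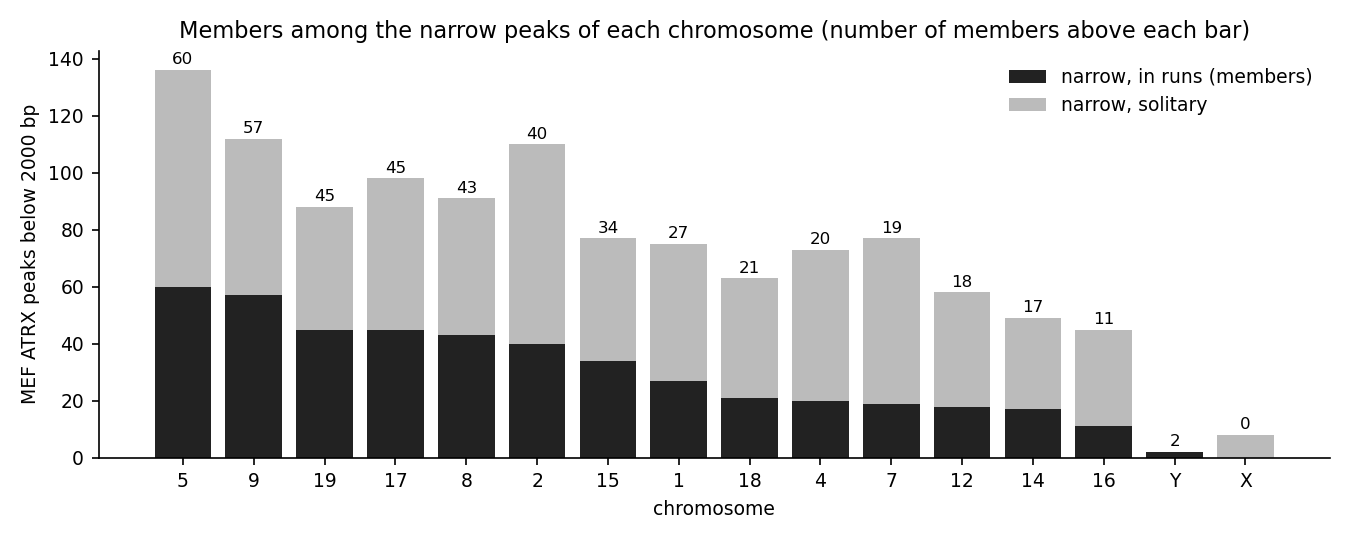
MEF ATRX peaks below 2000 bp on each of the 16 chromosomes the rule keeps, in order of the number of members. The black part of each bar and the number above it are members, the grey part is solitary narrow peaks. Chromosomes 5 and 9 lead with 60 and 57 members, and X has none.

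Runs lay near other runs in places. A second run lay within 1 Mb of 76 of the 169 runs, and within 0.5 Mb of 43. Joined over gaps of up to 1 Mb, runs formed 30 neighbourhoods of 2 or more, and 93 runs stayed by themselves. The largest neighbourhood was on chromosome 5 (112158735 to 115327269, 3.17 Mb), with 8 runs and 21 members, and its runs held no foetal liver peak. A stretch of 1.25 Mb on chromosome 2 (167042056 to 168290389) held 4 runs and 15 members, among them a run of 7 and a run of 4 that were 0.252 Mb apart. A stretch of 1.21 Mb on chromosome 17 (35007570 to 36214989) held 4 runs, all pairs. On chromosome 19 a stretch of 1.33 Mb (56396597 to 57723823) held 3 runs and 12 members. The runs of these 4 stretches held 2 foetal liver peaks, both in the 316 kb run on chromosome 19. Foetal liver peaks between the runs of a stretch are not in this count. The chromosome 2 stretch had such peaks at 167454329 to 167454859 and at 167459798 to 167460291, between its run of 4 and its run of 7. These stretches were picked with their values in view.

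The foetal liver list, from other cells, was not used to choose the members. Few members coincided with a foetal liver peak. Of 459 members, 9 (1.96%, exact 95% interval 0.900 to 3.69%) overlapped one by at least 1 bp, where 3.12% of all 2054 MEF peaks did. Solitary narrow peaks of the same chromosomes overlapped in 22 of 703 cases (3.13%, 1.97 to 4.70%), and wide peaks in 21 of 223 (9.42%, 5.92 to 14.0%). The intervals of members and solitary narrow peaks overlap, whereas that of wide peaks lies above that of members. Nearly all of these overlaps were with a foetal liver peak that has the same start and the same end: 7 of the 9 among members, 22 of 22 among solitary narrow peaks, 20 of 21 among wide peaks and 61 of 64 in the whole list. The differences between the groups were not tested.

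Of the 9 overlapping members, 7 matched a foetal liver peak at both ends to the base. The widest of them, 1789 bp, lay on chromosome 17 (84525427 to 84527215). Members of 1467 bp on chromosome 19 (57186465 to 57187931), 1378 bp on chromosome 9 (from 51785205 to 51786582) and 1337 bp on chromosome 12 (from 70461624 to 70462960) followed. Chromosome 5 had 2, of 1186 bp (144175581 to 144176766) and 1168 bp (124481922 to 124483089), and chromosome 7 had 1 of 1102 bp (132729447 to 132730548). All 7 were wider than the member median of 850 bp. Each lay in a separate run, with its nearest MEF neighbour between 139 bp (chromosome 9) and 92.4 kb (chromosome 5) away, and in none of the 7 runs did a second member have a foetal liver counterpart. How these ends came to be the same was not tested, so the overlap at these sites is not counted here as a separate measurement. The other 2, of 335 and 716 bp on chromosome Y (2694254 to 2694588 and 2696457 to 2697172), lay wholly inside a MEF peak of 8163 bp (2689152 to 2697314) that was also a foetal liver peak with identical ends. They were members through nesting, since the gap to the peak around them is 0 bp.

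Foetal liver peaks lay inside 13 of 169 runs (7.69%, exact interval 4.16 to 12.8%). Among all 323 runs of MEF peaks of any width on all chromosomes, 9.29% held one. Pairs held one in 11 of 132 cases (8.33%, 4.23 to 14.4%), and runs of 3 or more in 2 of 37 (5.41%, 0.661 to 18.2%). The 13 runs held 17 foetal liver peaks: 10 runs held 1 each, 2 held 2, and 1 held 3. With the foetal liver peaks that share both ends with a MEF peak left out, 7 of 169 runs (4.14%, 1.68 to 8.35%) held one. The share among all 323 runs was not recomputed in this way, so the 9.29% is not its counterpart.

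The run with 3 was on chromosome 17 (29545033 to 29607181, 62.1 kb). Its members were 1087, 573 and 1066 bp wide. The foetal liver peaks of 628, 848 and 688 bp (29575007 to 29575634, 29580546 to 29581393 and 29584012 to 29584699) stood together in the 45.1 kb gap between its first and second members, 6.51 to 15.6 kb from the nearest member. A further 2 foetal liver peaks, of 716 and 620 bp, followed after the end of the run. None of the 5 touched a MEF peak, so the listed peaks of the 2 cell types alternated along this stretch in blocks and did not coincide. This run was named for its 3 foetal liver peaks, and a site missing from either list may lie below that list's threshold.

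The pair on chromosome 5 at 124481922 to 124546427 (64.5 kb) held 2 foetal liver peaks: 1 was identical to its first member, and 1 of 810 bp (124501813 to 124502622) lay 18.7 kb from it. A second pair on chromosome 5 (118870727 to 118915781, 45.1 kb) held a foetal liver peak of 668 bp (118908275 to 118908942) that was 5.54 kb from its second member. On chromosome 15 (38465362 to 38524200, 58.8 kb) members of 372 and 431 bp had a foetal liver peak of 875 bp (38472889 to 38473763) 7.16 kb from the first. Among the pairs with an identical peak, that on chromosome 9 (51785205 to 51788040) was the tightest: its members of 1378 and 1319 bp were 139 bp apart, and the foetal liver list had the first and not the second. The pair on chromosome 7 (132723426 to 132730548, 7.12 kb) had its foetal liver peak at the second member. That on chromosome 12 (70461624 to 70487184, 25.6 kb) had it at the first, and that on chromosome 17 (84482580 to 84527215, 44.6 kb) at the second.

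**Figure D4:**
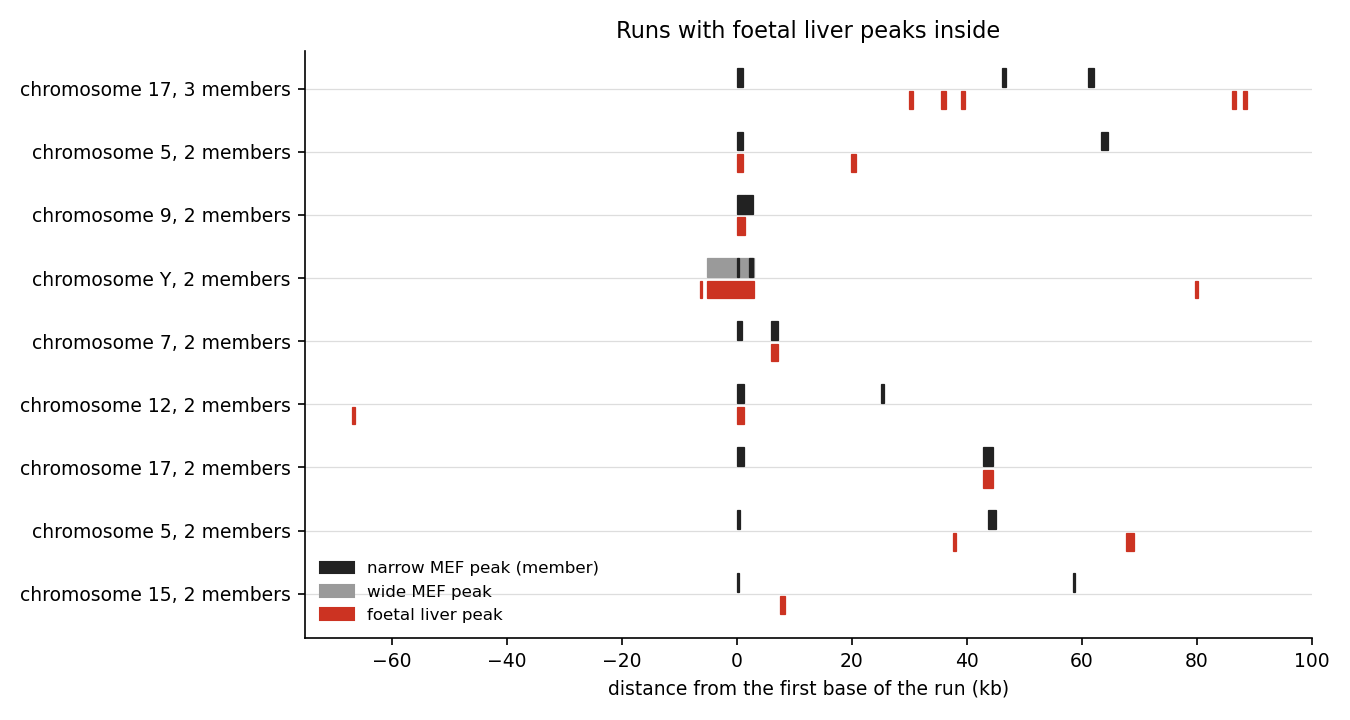
Runs that hold foetal liver peaks, drawn from the first base of each run in kb: the 10 with the most such peaks (equal counts ordered by more members, then by shorter span, which leaves out 3 longer pairs with 1 such peak), without the 316 kb run on chromosome 19, which is drawn among the largest runs. Black boxes are members, grey boxes wide MEF peaks and red boxes foetal liver peaks up to 100 kb outside the run, with a thin outline that slightly widens the narrowest. In the run of 3 on chromosome 17 the red boxes fall in a gap between members, and in 5 of the pairs a red box lies directly under a member with the same ends.

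Seen from the foetal liver list, 17 of the 665 peaks on these chromosomes (2.56%) lay inside a run. That is 1.97 per Mb of run (exact Poisson interval 1.15 to 3.15, 17 peaks in 8.63 Mb) against 0.337 per Mb elsewhere on the same chromosomes (0.312 to 0.365, 648 peaks). Leaving out every foetal liver peak that overlaps a MEF peak, the rates were 1.04 (0.477 to 1.98, 9 peaks) and 0.316 per Mb (0.291 to 0.342, 607 peaks). Both rates were higher inside runs, although 156 of 169 runs held none. Runs begin and end on MEF peaks, and 7 of the 17 foetal liver peaks inside were identical to a member. The first count is therefore not independent of how runs were drawn, and the difference was not tested. The second count rested in part on the chromosome 17 run with 3. Without that run, the rate of foetal liver peaks free of MEF overlap was 0.700 per Mb (0.257 to 1.52, 6 peaks), an interval that takes in the rate elsewhere, and the rate of all foetal liver peaks was 1.63 per Mb (0.893 to 2.74, 14 peaks). Foetal liver peaks also came in groups, since 268 of the 665 (40.3%) had another within 100 kb, so these intervals are too narrow. No rate per Mb was computed inside the 323 runs of all MEF peaks, so the higher rates are not shown to be particular to these runs. By share, 7.69% of the runs here held a foetal liver peak, against 9.29% of those 323 runs.

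Around the members, the nearest foetal liver peak lay a median of 0.517 Mb away, with the middle 50% from 0.198 to 1.59 Mb. For solitary narrow peaks the median was 0.747 Mb (0.248 to 1.94 Mb), for wide peaks 0.579 Mb (0.139 to 1.60 Mb) and for all MEF peaks 0.643 Mb (0.206 to 1.84 Mb). A foetal liver peak lay within 10 kb of 24 members (5.23%, 3.38 to 7.68%), against 5.74% of all MEF peaks and 30 of 703 solitary narrow peaks (4.27%, 2.90 to 6.04%). Within 100 kb there was one for 75 members (16.3%, 13.1 to 20.0%), against 15.0% of all MEF peaks and 91 solitary narrow peaks (12.9%, 10.6 to 15.7%). These shares were near those of the whole list and their intervals overlap.

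Counting only foetal liver peaks that overlap no MEF peak, 14 of 459 members (3.05%, 1.68 to 5.06%) had one within 10 kb, against 2.92% of all MEF peaks, 10 of 703 solitary narrow peaks (1.42%, 0.684 to 2.60%) and 12 of 223 wide peaks (5.38%, 2.81 to 9.21%). The member share was near that of the whole list, and its interval overlaps those of both other groups. The 14 members drew on 14 foetal liver peaks on 11 chromosomes. The difference was not tested.

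**Figure D5:**
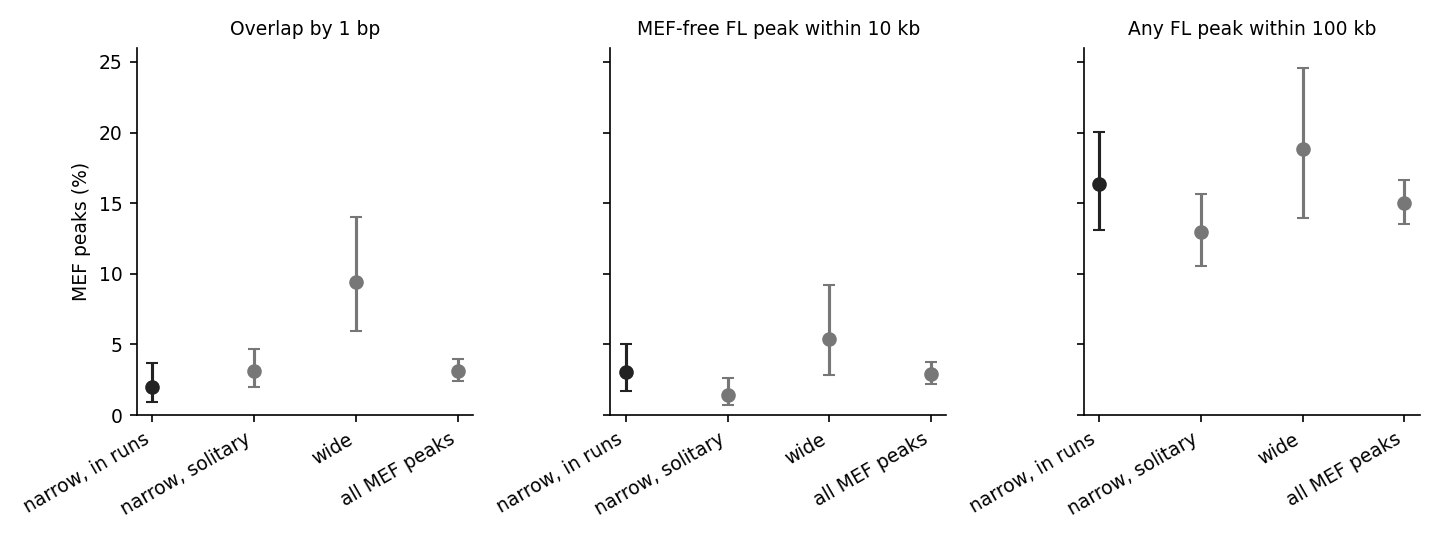
Percent of MEF peaks (y axis) with a foetal liver (FL) peak that overlaps them by at least 1 bp (left), with a foetal liver peak free of any MEF overlap within 10 kb (middle) and with any foetal liver peak within 100 kb (right). Points are shares and bars exact 95% intervals for the 459 members, 703 solitary narrow peaks, 223 wide peaks and all 2054 MEF peaks. The members are labelled as narrow peaks in runs, although 52 of them had only a wide peak within reach. Members sit at 1.96, 3.05 and 16.3%, near the shares of all MEF peaks.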

How the data were processed

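Each of the 2 deposited files is a peak list of 3 columns (chromosome, start, end) without a header, score or read count. The submitters' processing notes name Bowtie 0.12.3 and the build mm9. How peaks were called (program, threshold, control, filters) is not given in the sources used here, nor is any removal of artefact-prone regions. Starts are printed counted from 1. mm9 chromosome lengths came from GenomeInfoDb 1.38.1. The gene and promoter tables at hand are of another build and were not set against the peaks.

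Widths, gaps, runs and overlaps came from scipy 1.17.1, pandas 2.3.3 and numpy 2.4.6 under Python 3.11.15, and figures from matplotlib 3.10.9. The functions were tested on simulated data with planted runs. Shares have exact Clopper-Pearson 95% intervals and rates exact Poisson intervals. A foetal liver peak was inside a run if it overlapped the stretch from the run's first start to its last end.

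The members and lists were chosen with earlier results of these data known. Regions named were the 10 runs with the most members, the 10 with the most foetal liver peaks, the 5 shortest and 5 longest runs of at least 3 members, members that overlap a foetal liver peak, and the 3 peaks on either side of each limit. Others are marked as picked with their values in view. Alternatives varied the gap, the width, the way runs are joined, the overlap and the peaks used.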

Additional observations from a re-analysis of the deposited data

How the results depend on the processing

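The numbers of members and runs depend on the limits that define them. With gaps of at most 10 kb there were 139 members and 51 runs, and with widths below 1000 bp 284 and 75. With the wider 50% of each list there were 98 and 33. That last setting selects on width alone, and whether it resembles a stricter peak threshold is unknown. Fewer peaks meet each of these settings by construction. The share of members overlapping a foetal liver peak was 0.704% (2 of 284) with widths below 1000 bp, 4.08% (4 of 98) in the wider 50%, and 0% (0 of 459, exact upper limit 0.800%) without foetal liver peaks that share both ends with a MEF peak. The share of runs with a foetal liver peak inside was 15.2% (5 of 33) in the wider 50%, 19.5% (33 of 169) when runs were extended by 100 kb on both sides, and 4.14% without the identical peaks. The cause was not tested beyond these constructions. The other 28 of 40 recomputed values stayed within 1.5 times the count or within the 95% interval of the share. They include merging MEF peaks within 1 kb, leaving out chromosome 5, and leaving out the first 1 Mb after the gap. The alternatives without the 15-member run on chromosome 9, without nested MEF peaks and without identical foetal liver peaks were chosen after seeing the data. No paired analysis was possible because each group has 1 library. With no heights or read counts in the lists, peaks could not be ranked by strength, and a site missing from the foetal liver list may be unbound there or lie below that list's threshold.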

Other observations

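Toward both chromosome ends the shares of members were near those of all MEF peaks, which the member intervals take in. In the last 5 Mb, on the telomere side, lay 52 of 459 members (11.3%, exact 95% interval 8.58 to 14.6%) and 188 of all 2054 MEF peaks (9.15%). Among peaks of the same chromosomes, 57 of 703 solitary narrow peaks (8.11%, 6.20 to 10.4%) and 18 of 223 wide peaks (8.07%, 4.85 to 12.5%) lay there. Of the 52 members there, 50 belonged to runs of 2 or more, as did 407 of all 459 members. A run of 3 on chromosome 2 (181662292 to 181748087) reached the very end of the assembled chromosome and held no foetal liver peak. In the first 10 Mb after the unsequenced block, on the centromere side, lay 53 members (11.5%, 8.77 to 14.8%) and 189 of all 2054 MEF peaks (9.20%). This window also held 65 solitary narrow peaks (9.25%, 7.21 to 11.6%) and 33 wide peaks (14.8%, 10.4 to 20.1%). The 15-member run of chromosome 9 makes up 15 of those 53, and without it 38 of 444 members (8.56%, 6.13 to 11.6%) lay there. The intervals overlap at both ends and the differences were not tested. The chromosome 2 run was picked with its values in view.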
